A study of Mus musculus with 6 samples.

Results

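The genes described are the Wnt ligands, their Frizzled receptors (Fzd) and the R-spondins (Rspo) of the mouse. They were taken by symbol from the protein-coding RefSeq genes of GRCm38, the assembly whose coordinates mm10 shares, which gave 33 of 21887 genes: 19 Wnt, 10 Fzd and 4 Rspo genes. Open chromatin was measured by ATAC-seq, in which a transposase cuts accessible DNA and inserts sequencing adapters, in 6 libraries, 3 each of the lines OB Fam20c f/f and, with the gene removed, OB Fam20c KO. OB Fam20c f/f is an immortalized mouse osteoblast line whose Fam20c alleles are flanked by loxP sites. OB Fam20c KO was made from it by infection with a Cre recombinase lentivirus, so both groups come from the floxed line. The study describes virus and Cre for KO alone and does not say whether f/f received a control virus. Fam20c encodes the Golgi kinase that phosphorylates most secreted phosphoproteins. Nothing in the labels says that the 3 libraries of a group came from separate cultures, so p-values measure the spread between these libraries, which may be technical. Peaks of the 6 lists that shared 1 bp or more were merged into 89410 regions, and 184 of these overlapped the span of a member gene extended by 20 kb on each side. Because some members are neighbours, 22 of the 184 regions counted for more than 1 member, and a region does not say which gene it serves.

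Wnt proteins are secreted, lipid-modified ligands that bind Frizzled receptors together with the co-receptors Lrp5 and Lrp6, which stabilizes β-catenin, or with Ror and Ryk receptors, which act without it. R-spondins bind the Lgr receptors and take the ubiquitin ligases Rnf43 and Znrf3 away from the cell surface, so that Frizzled receptors are kept there. In bone, Wnt signalling drives osteoblast differentiation, and several of these ligands and receptors change bone mass when they are lost.

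The receptors and most of the ligands had an open gene start in every library, with 1 receptor and 8 ligands as exceptions, and few of their regions differed between the groups. A peak lay within 1 kb of the gene start in all 6 libraries at 21 of the 33 genes, 63.6% against 53.4% of all protein-coding genes, and in no library at 6 genes, 18.2% against 38.0%. These shares are descriptions. For 10 members the start was not in the RefSeq promoter table used, and either end of the span was taken, so a peak at the far end of those genes would count as well. By family, the start was open in all 6 libraries at 9 of 10 Fzd genes, at 11 of 19 Wnt genes and at 1 of 4 Rspo genes. Wnt10a is among the 11 through a region at the high-coordinate end of its span, chr1:74803006-74803749. No region lay within 1 kb of its low-coordinate end, and which end is the start was not given. The 6 genes with no peak at the start in any library were Wnt8a, Wnt8b, Wnt9b, Wnt16, Fzd10 and Rspo4. A missing peak means that the site did not pass the peak caller in that library, not that the chromatin was closed.

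Promoter sequences from RefSeq (GRCm38.p6, 250 bases before to 50 after the start, written 5′ to 3′ along the gene) were found for 23 of the 33 genes. The first set shows the 3 open starts with the highest rank among a library's peaks as a mean over the 6 libraries, Fzd1, Fzd9 and Fzd4. Then follow Wnt7a, which the study lists, and Wnt2, Wnt3a and Rspo1, whose start had a peak in 1 f/f library and in no KO library. Rspo3, with a peak in 2 f/f libraries and in no KO library, is not among the 23. Capitals mark CG dinucleotides.
Fzd1, chr5:4758167-4758466, minus strand: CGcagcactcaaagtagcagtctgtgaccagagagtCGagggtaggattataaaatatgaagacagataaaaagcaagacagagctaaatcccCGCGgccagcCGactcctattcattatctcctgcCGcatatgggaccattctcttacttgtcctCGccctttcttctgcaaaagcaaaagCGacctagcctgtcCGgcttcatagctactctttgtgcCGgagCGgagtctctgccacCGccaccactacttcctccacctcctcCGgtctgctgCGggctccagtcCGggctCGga
Fzd9, chr5:135250998-135251297, minus strand: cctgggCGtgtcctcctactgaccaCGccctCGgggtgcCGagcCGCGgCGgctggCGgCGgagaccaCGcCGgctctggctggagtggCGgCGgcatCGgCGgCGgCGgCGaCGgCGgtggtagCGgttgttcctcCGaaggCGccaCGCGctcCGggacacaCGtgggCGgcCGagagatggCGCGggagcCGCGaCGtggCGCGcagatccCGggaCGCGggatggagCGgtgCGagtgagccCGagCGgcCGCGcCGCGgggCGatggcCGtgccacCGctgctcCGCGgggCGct
Fzd4, chr7:89404116-89404415, plus strand: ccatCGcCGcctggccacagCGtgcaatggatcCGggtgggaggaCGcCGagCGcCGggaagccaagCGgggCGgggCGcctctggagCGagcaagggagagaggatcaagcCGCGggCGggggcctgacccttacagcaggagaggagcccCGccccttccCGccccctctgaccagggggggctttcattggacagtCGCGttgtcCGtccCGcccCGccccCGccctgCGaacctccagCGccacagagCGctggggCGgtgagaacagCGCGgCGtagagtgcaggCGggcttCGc
Wnt7a, chr6:91411304-91411603, minus strand: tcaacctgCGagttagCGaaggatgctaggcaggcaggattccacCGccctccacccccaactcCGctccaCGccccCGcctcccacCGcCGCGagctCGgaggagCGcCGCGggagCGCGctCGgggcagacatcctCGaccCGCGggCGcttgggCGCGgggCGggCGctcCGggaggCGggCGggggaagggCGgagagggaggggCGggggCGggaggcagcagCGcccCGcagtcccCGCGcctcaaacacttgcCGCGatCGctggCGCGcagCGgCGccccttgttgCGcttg
Wnt2, chr6:18030396-18030695, minus strand: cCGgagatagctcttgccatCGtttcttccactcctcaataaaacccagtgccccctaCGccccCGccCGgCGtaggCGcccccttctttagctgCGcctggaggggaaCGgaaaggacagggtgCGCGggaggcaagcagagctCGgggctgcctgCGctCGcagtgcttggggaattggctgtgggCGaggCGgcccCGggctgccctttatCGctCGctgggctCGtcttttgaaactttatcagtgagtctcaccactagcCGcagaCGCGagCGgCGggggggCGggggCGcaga
Wnt3a, chr11:59290702-59291001, minus strand: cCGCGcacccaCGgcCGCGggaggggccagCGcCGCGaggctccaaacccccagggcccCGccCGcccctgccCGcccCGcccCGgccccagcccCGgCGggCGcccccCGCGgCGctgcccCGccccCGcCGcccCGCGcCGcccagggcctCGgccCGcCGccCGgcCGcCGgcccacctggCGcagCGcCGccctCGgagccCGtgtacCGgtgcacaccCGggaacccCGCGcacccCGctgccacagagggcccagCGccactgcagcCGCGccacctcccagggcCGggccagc
Rspo1, chr4:124986180-124986479, plus strand: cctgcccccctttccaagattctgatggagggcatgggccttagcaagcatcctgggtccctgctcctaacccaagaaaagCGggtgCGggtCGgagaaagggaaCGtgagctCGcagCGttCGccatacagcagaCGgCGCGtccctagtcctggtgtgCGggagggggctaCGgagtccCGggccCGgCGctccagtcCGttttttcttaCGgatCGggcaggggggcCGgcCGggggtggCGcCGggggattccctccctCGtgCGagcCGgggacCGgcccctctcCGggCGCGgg

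The printed promoters held 16 to 53 CG dinucleotides, and each had a peak in at least 1 library. Among all member promoters the number ran from 4 to 58 where all 6 libraries had a peak and from 6 to 45 where none had. Over the members, promoters with a peak in all 6 libraries held a median of 35 CG dinucleotides at 74.2% GC (14 promoters), and those with none a median of 19.5 at 64.5% GC (6 promoters). Over all protein-coding genes the medians were 22 at 62.0% GC and 3 at 47.7% GC. The medians hide exceptions on both sides. Fzd10 had 45 CG dinucleotides at 77.7% GC and no peak in any library, and Wnt3a had 45 at 86.3% GC and a peak in 1 library. Fzd1, the receptor whose start had the highest mean rank, had 16.

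**Figure D1:**
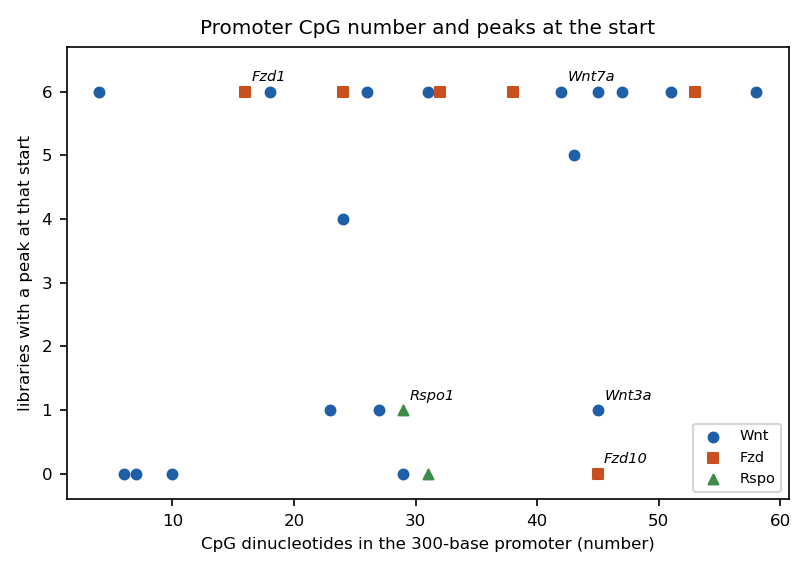
Number of CG dinucleotides in each member promoter (x axis) against the number of libraries with a peak within 1 kb of that start (y axis, 0 to 6); each point is 1 of 26 promoters, blue circles Wnt, orange squares Fzd, green triangles Rspo. Fzd10 and Wnt3a, with 45 CG dinucleotides each, sit at 0 and 1 libraries, and Fzd1, with 16, at 6.

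Short motifs of factors known in osteoblasts were looked for on both strands of the 26 member promoters. The TCF/LEF motif CTTTGAT, to which the factors that carry β-catenin bind, was in 2 (7.69%, against 3.22% of 21263 promoters), and the AP-1 motif TGANTCA was in 1 (3.85%, against 6.99%). The RUNX motif TGTGGTT was in 0 (against 4.71%) and the E-box CAGCTG in 2 (7.69%, against 15.6%). No motif searched is contained in another, but the end of the TCF/LEF motif can also be the beginning of the AP-1 motif. These counts are too small to compare, and a match is not a bound site. The promoters with the TCF/LEF motif belong to Wnt11, a ligand of β-catenin-independent signalling whose start was open in all 6 libraries, and to an internal start of Wnt5b with no peak. They are printed with the motif in capitals, at position -51 and position -71 from the start, and the outer start of Wnt5b, open in all 6 libraries, follows with its AP-1 motif at position -191.
Wnt11, chr7:98834862-98835161, plus strand: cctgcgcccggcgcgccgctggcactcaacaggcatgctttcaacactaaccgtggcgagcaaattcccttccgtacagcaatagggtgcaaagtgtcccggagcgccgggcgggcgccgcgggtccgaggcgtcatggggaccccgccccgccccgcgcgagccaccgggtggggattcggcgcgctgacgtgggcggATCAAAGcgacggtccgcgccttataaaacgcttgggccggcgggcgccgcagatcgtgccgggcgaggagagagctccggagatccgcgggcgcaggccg
Wnt5b, chr6:119449337-119449636, minus strand: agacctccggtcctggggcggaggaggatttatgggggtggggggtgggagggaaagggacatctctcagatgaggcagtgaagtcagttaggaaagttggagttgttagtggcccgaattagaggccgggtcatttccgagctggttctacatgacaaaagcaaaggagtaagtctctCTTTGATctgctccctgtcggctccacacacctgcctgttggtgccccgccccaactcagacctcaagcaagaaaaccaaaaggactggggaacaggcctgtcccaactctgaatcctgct
Wnt5b, chr6:119544298-119544597, minus strand: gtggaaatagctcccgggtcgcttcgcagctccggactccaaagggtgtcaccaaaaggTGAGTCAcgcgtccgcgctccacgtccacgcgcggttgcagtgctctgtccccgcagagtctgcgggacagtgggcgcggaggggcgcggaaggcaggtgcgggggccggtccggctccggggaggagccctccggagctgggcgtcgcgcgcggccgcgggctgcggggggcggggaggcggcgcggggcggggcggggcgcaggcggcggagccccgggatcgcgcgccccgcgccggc

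Before the comparison of the groups, the libraries and the cells were checked. The lists held 62781 to 74797 peaks, except that of KO replicate 3, which held 32958 peaks. Over the regions shared by the 6 libraries, the log2 fold enrichment of KO replicate 3 correlated with that of the other libraries at 0.618 to 0.771, while all other pairs stood at 0.865 to 0.963. These are correlations across regions of libraries that differ in list length, given as a description. The group comparisons below are therefore given with all libraries and without KO replicate 3. Fold enrichments are printed as listed, and since they differ in level between libraries, centred values (the log2 fold minus the library's median) are added where they change whether the groups overlap. Centring shifts a library as a whole and does not make the spread of the folds equal between libraries. The start of Fam20c itself had a peak in all 6 libraries, with a fold enrichment over the local background of 10.3, 8.51 and 8.23 in f/f and of 11.6, 11.2 and 9.06 in KO. Peak lists do not show whether a gene is deleted, and so the labels could not be checked this way. Of 8 osteoblast markers, 5 had a start peak in all 6 libraries (Runx2, Sp7, Col1a1, Col1a2 and Spp1), Alpl had one in 5, and the late markers Bglap and Ibsp had none. Presence does not mean equal strength. The Sp7 start peak ranked above 26.2%, 41.0% and 50.9% of the peaks in f/f and above 7.6%, 4.6% and 6.6% in KO. Those of Runx2 and Col1a1 also ranked lower in every KO library than in every f/f library. At Col1a2 and Spp1 the groups overlapped. These ranks were not tested. Of the markers of other cells, Spi1, Cd68 and Cd34 of blood, Comp and Sox9 of cartilage, Krt8 of epithelium and Cebpa of fat had start peaks in all 6 libraries. Col2a1 of cartilage had one in 5 libraries, the endothelial gene Kdr and the muscle gene Myod1 in 4 each and the endothelial gene Cdh5 in 2. The other 13 of these 24 markers, among them Ptprc, Acan, Epcam, Adipoq, Pecam1 and Tie1, had none. No marker list had more start peaks in KO than in f/f, and the part of other cells in the results was not tested.

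The number of regions with a peak at the members was 119, 128 and 149 in f/f and 135, 137 and 78 in KO. KO replicate 3 was below all others and the rest overlapped. The means were 132 ± 15.4 and 117 ± 33.5 (SD, n = 3 each), a difference of -15.3 (two-sided exact permutation test, p = 0.7, where 3 libraries against 3 allow no p below 0.1), and without KO replicate 3 the difference turned to 4 in favour of KO (exact p = 0.7). As a share of all regions with a peak in the library, the members took 0.193%, 0.208% and 0.201% in f/f and 0.217%, 0.216% and 0.244% in KO. All KO libraries were above all f/f libraries in that share (0.201% ± 0.00752 against 0.226% ± 0.0159, SD, n = 3 each, exact permutation p = 0.1, the smallest possible; p = 0.2 without KO replicate 3).

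Of the 184 regions, 72 had a peak in all 6 libraries (39.1%, against 33.4% of all regions), 32 in every library but KO replicate 3 and 40 in a single library. Of the regions at member starts, 23 of 31 were present in all 6 libraries, against 26 of 74 regions between genes and 18 of 67 inside a member gene away from its start. Another 7 lay inside other genes, none of them present in all 6 libraries, and 5 at the start of one, all of them present in all 6. The spans that carried most regions were those of Rspo2 with 17, Wnt3a, Wnt7b and Wnt9a with 15 each and Wnt5b with 14. Rspo2, whose product is needed for limb and lung growth, had 6, 8 and 8 regions in f/f and 8, 9 and 6 in KO. Wnt5b, a ligand of β-catenin-independent signalling, had 13 in each of the 3 f/f libraries and in both other KO libraries and 7 in KO replicate 3. Wnt9a had 11, 11 and 13 against 11, 11 and 7, and its window shares 7 regions with that of its neighbour Wnt3a. Among the receptors Fzd6 led with 8, followed by Fzd5, Fzd7, Fzd2 and Fzd9 with 4 each. Fzd10 had no region in any library.

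**Figure D2:**
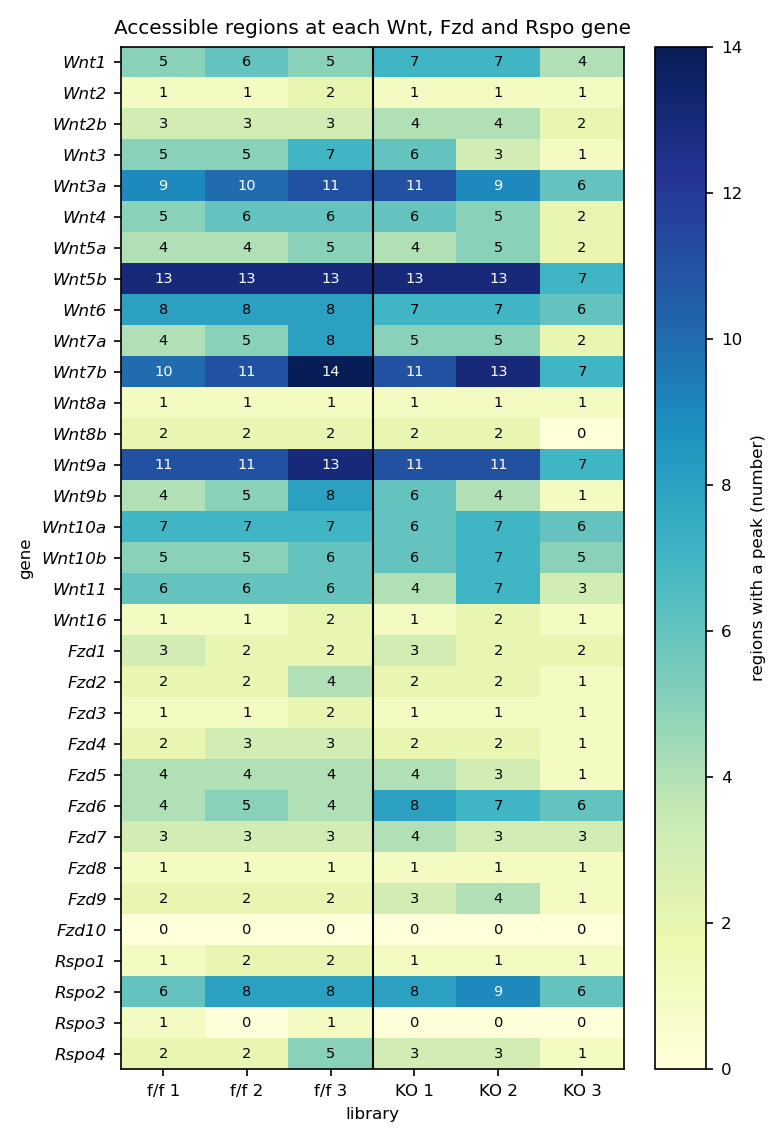
Number of regions with a peak in the window of each gene (rows, gene span with 20 kb on each side) in each library (columns, 3 f/f on the left and 3 KO on the right); the colour repeats the number printed in the cell. Fzd6 has 4, 5 and 4 in f/f and 8, 7 and 6 in KO, and KO 3 is lower than the other libraries in most rows.

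Ligands with a known role in bone were mostly open at their start. For Wnt1, whose loss causes brittle bone, the start had a fold enrichment of 9.32, 8.48 and 9.15 in f/f and of 8.25, 9.37 and 6.03 in KO, and its peak ranked above 79.7% to 97.3% of the peaks of each library. For Wnt10b, which raises bone mass when overproduced and lies beside Wnt1, the values were 4.73, 3.69 and 3.87 against 5.11, 5.50 and 3.68. For Wnt4, a ligand needed for kidney development, they were 6.78, 5.25 and 6.10 against 8.26, 8.44 and 4.06. In these 3 ligands KO replicate 3 was the lowest library as listed and the groups overlapped. After centring they still overlapped at Wnt1 and Wnt10b, but at Wnt4 the values were -0.58, -0.63 and -0.68 in f/f and -0.41, -0.41 and -0.56 in KO, which do not overlap. The start of Wnt5a, the main ligand of the Ror receptors, was at 5.97, 4.52 and 4.99 against 5.81, 5.41 and 4.96. That of Wnt7b, a ligand of the osteoblast lineage, was at 8.43, 6.50 and 6.80 against 8.07, 8.71 and 4.43. Wnt11 had 7.74, 7.05 and 7.61 against 9.75, 10.0 and 6.14. As listed, the groups overlapped at all of them. After centring they did not overlap at Wnt11, with -0.39, -0.21 and -0.36 in f/f and -0.17, -0.16 and 0.04 in KO. At none of these 6 ligands did the difference pass the adjusted p threshold of limma in all 6 libraries or without KO replicate 3.

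Other ligands had no start peak, or one in some libraries. Wnt16, which protects cortical bone, had no start peak, and its nearest region, 6951 bp from the start, was present in all 6 libraries with a fold enrichment of 9.76, 7.91 and 10.7 in f/f and 9.18, 11.96 and 5.78 in KO. Wnt3a, the classical activator of β-catenin, had a start peak in f/f replicate 2 alone, at a fold of 1.995. Wnt2 had one in f/f replicate 3 alone, at 3.11. Wnt3 had one in all f/f libraries and in KO replicate 1, at 4.28, 3.19, 4.06 and 2.88. Wnt2b had one everywhere but in KO replicate 3, at 6.30, 4.99 and 5.99 in f/f and 6.52 and 9.27 in KO. The single-library peaks of Wnt3a and Wnt2 ranked above 2.72% and 7.61% of the peaks in their lists by −log10 q.

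Receptor starts were open in all libraries except that of Fzd10, which had no peak in any, and apart from Fzd8 they ranked above at least 73.9% of the peaks of each library. Fzd1 stood at 12.1, 9.67 and 10.5 in f/f and 12.6, 12.9 and 8.74 in KO, above 93.4% to 98.7% of the peaks of each library. Fzd9, a receptor that osteoblasts need to mineralize bone, stood at 15.9, 13.7 and 13.7 against 16.03, 16.7 and 8.50. Fzd2 stood at 9.21, 6.88 and 7.37 against 8.49, 8.54 and 8.24. Fzd4, which also binds norrin in retinal vessels, stood at 11.3, 8.55 and 9.19 against 13.3, 13.6 and 10.6, and its start region is also within 1 kb of the start of Tmem135. As listed, the groups overlapped at all 4, at Fzd1, Fzd4 and Fzd9 through KO replicate 3 alone. After centring they overlapped at Fzd1, Fzd2 and Fzd9 but not at Fzd4, where the values were 0.15, 0.07 and -0.09 in f/f and 0.27, 0.28 and 0.82 in KO and KO replicate 3 was the highest library. The difference at Fzd4 was 0.41 ± 0.16 on the log2 scale (SE, limma, adjusted p = 0.186; 0.30 ± 0.13 and 0.0931 without KO replicate 3). Fzd5 stood at 8.85, 7.35 and 7.72 in f/f and 10.4, 10.6 and 9.36 in KO, so that every KO library was above every f/f library, but the difference of 0.39 ± 0.19 on the log2 scale did not pass the threshold (SE, limma, adjusted p = 0.267; 0.308 without KO replicate 3). The starts of Fzd3, Fzd7 and Fzd8 lay between 6.21 and 17.0 over the 6 libraries, and as listed their groups overlapped. After centring they still overlapped at Fzd7 and Fzd8. At Fzd3 the centred values were 0.506, 0.5437 and 0.175 in f/f and 0.5440, 0.605 and 0.815 in KO, which narrowly do not overlap. The difference at Fzd3 was 0.25 ± 0.13 on the log2 scale (SE, limma, adjusted p = 0.306; 0.24 ± 0.12 and 0.154 without KO replicate 3).

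The R-spondins differed from each other. Rspo2 had an open start in all libraries, at 11.6, 9.36 and 11.5 in f/f and 12.4, 12.9 and 7.10 in KO. Rspo1 had a start peak in f/f replicate 2 alone, at 2.60, and a stronger region 1764 bp away in all 6 libraries, at 10.7, 6.62 and 8.39 against 13.4, 13.2 and 4.49. Rspo3, a gene linked to bone density, had 1 region in its whole window, at its start or span end, in f/f replicates 1 and 3 at 3.64 and 3.11. Rspo4, which is needed for nails, had no start peak and 5 regions, 1 of them in all 6 libraries.

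**Figure D3:**
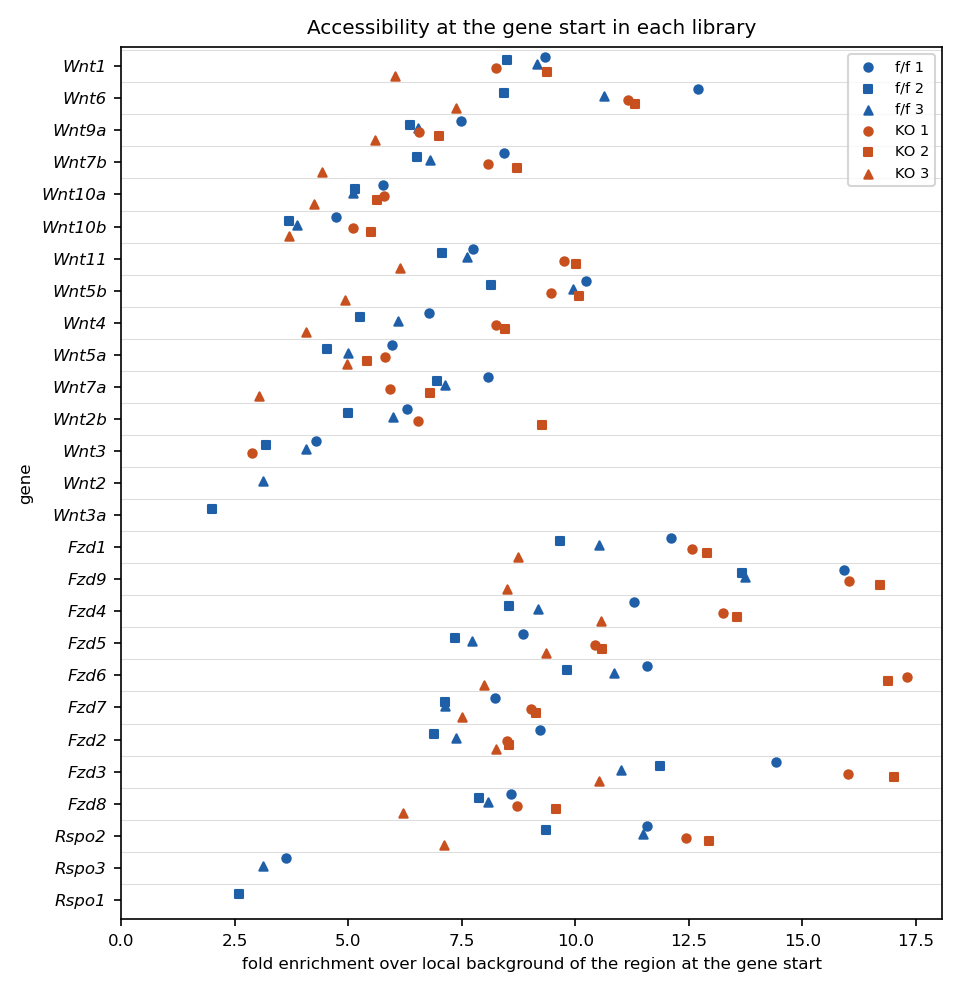
Fold enrichment over the local background of the region at the gene start (x axis) for each member with such a peak (rows, Wnt, Fzd and Rspo genes, each sorted by mean rank among the library's peaks); blue f/f, orange KO, circle, square and triangle for replicates 1, 2 and 3, with no point where a library had no peak. KO 3 is the lowest point at most genes, and the points of Fzd6 in KO 1 and KO 2, at 17.3 and 16.9, lie to the right of f/f.

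Counted over genes, 24, 25 and 25 members had a start peak in the f/f libraries and 23, 22 and 21 in KO. The groups did not overlap (24.7 ± 0.577 against 22 ± 1, SD, n = 3 each, a difference of -2.67, exact permutation p = 0.1, the smallest possible; -2.17 without KO replicate 3). The genes behind this difference are Wnt2, Wnt2b, Wnt3, Wnt3a, Rspo1 and Rspo3. Their start peaks ranked above no more than 19.7% of the peaks of a library, except at Wnt2b, where they ranked above 38.1% to 55.8%. With the same number of peaks taken from each list, the difference was 0. Over all protein-coding genes a start peak was found at 58.7% to 60.4% in f/f, at 59.3% and 59.1% in KO replicates 1 and 2 and at 53.7% in KO replicate 3.

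A region was called group-specific where each of the 3 libraries of f/f or of KO, and none of the opposite group, had a peak in it. The members had 2 regions only in f/f (1.09%, against a background of 3.75% of all regions) and 1 only in KO (0.543%, against 0.179%). The first f/f region lay 12143 bp outside the span of Wnt4, at chr4:137311644-137312198, with a fold of 4.96, 3.28 and 3.74. The other, at chr1:74784218-74784719, lay inside the span of Wnt6 and in the window of Wnt10a, with a fold of 3.85, 3.50 and 3.81. Both were weak peaks, above 16.5% to 30.6% of the peaks of their library. The KO region, at chr15:39043311-39043635, lay 5119 bp outside the span of Fzd6, a receptor known for planar cell polarity, with a fold of 2.92, 2.76 and 2.27. It too was weak, ranking above 36.5%, 35.8% and 4.14% of the peaks. Without KO replicate 3 there were again 2 regions only in f/f (1.10%, against 3.82%), the same 2, and 4 only in KO (2.20%, against 2.93%). Those 4 were the region at Fzd6, another 5557 bp on its other side with a fold of 4.06 and 3.46, a region 1659 bp from the start of Wnt1 and in the window of Wnt10b with 3.61 and 4.01, and a region 13553 bp from the start of Fzd9 with 2.97 and 3.72. The counts of members are near or below the background except in KO with all libraries, where the count is 1.

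Region numbers per gene were read in the same way. With all libraries, the number was higher in every KO library than in every f/f library at 1 member, Fzd6 (background 0.121% of genes with a region), and lower at 1, Wnt6 (background 9.94%). Fzd6 had 4, 5 and 4 regions in f/f and 8, 7 and 6 in KO (4.33 ± 0.577 against 7 ± 1, SD, n = 3 each). Wnt6 had 8 in each f/f library and 7, 7 and 6 in KO. Without KO replicate 3, Fzd6, Fzd9, Wnt1 and Wnt2b were higher in KO (background 4.44%) and Wnt6 was lower (10.1%). With the same number of peaks from each list, an alternative chosen after the numbers were seen, as was the one without KO replicate 3, the genes changed. Wnt9a was then higher in KO, with 5, 4 and 5 against 6, 6 and 7 (background 3.84%), and Wnt7a lower, with 3, 3 and 3 against 1, 2 and 2 (background 4.92%). Fzd6 then had 3, 3 and 3 regions in f/f and 3, 3 and 6 in KO, so that its groups overlapped. In the 1 Mb on either side of Fzd6 outside the member windows, regions with a peak numbered 108, 126 and 136 in f/f and 129, 130 and 66 in KO, of 196 in all. Of these 196, 1 was only in f/f and 1 only in KO. Around Wnt4, 7 of 166 such regions were only in f/f and 1 only in KO. Around Wnt6 the counts were 2 and 0 of 161. The background was 3.75% of all regions only in f/f and 0.179% only in KO.

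The fold enrichment was compared by limma on its log2, centred on each library's median, in the 29849 regions that had peaks in all 6 libraries, 72 of them at members. Of these, 1 member region was higher in KO at an adjusted p under 0.05 (background 1.52%) and 0 were lower (background 1.12%). At an unadjusted p under 0.05 there were 13 of the 72 member regions, against 5970 of all 29849, and without KO replicate 3 there were 18 of 104, or 17.3%, against 28.8% of all regions. The median difference was 0.03 on the log2 scale, against 0.05 over all regions tested, with a range from -0.68 to 0.70, and 40 differences were above 0 and 32 below.

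The called region, at chr1:74797081-74798092, lay inside Wnt10a, 5062 bp from the nearest end of its span, and in the window of Wnt6. Wnt10a is a ligand needed for tooth development. Its fold enrichment was 8.04, 4.78 and 6.99 in f/f and 13.3, 12.6 and 6.29 in KO. The folds as listed overlap through KO replicate 3. After centring the log2 values were -0.34, -0.77 and -0.48 in f/f and 0.27, 0.17 and 0.07 in KO, which do not overlap. The difference was 0.70 on the log2 scale with an SE of 0.14 (limma, adjusted p = 0.0312), and without KO replicate 3 it was 0.82 with an SE of 0.15 (limma, adjusted p = 1.43e-05). With f/f replicate 1, 2 or 3 or KO replicate 1 or 2 left out, the adjusted p was 0.0732 to 0.140 and the call was lost.

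**Figure D4:**
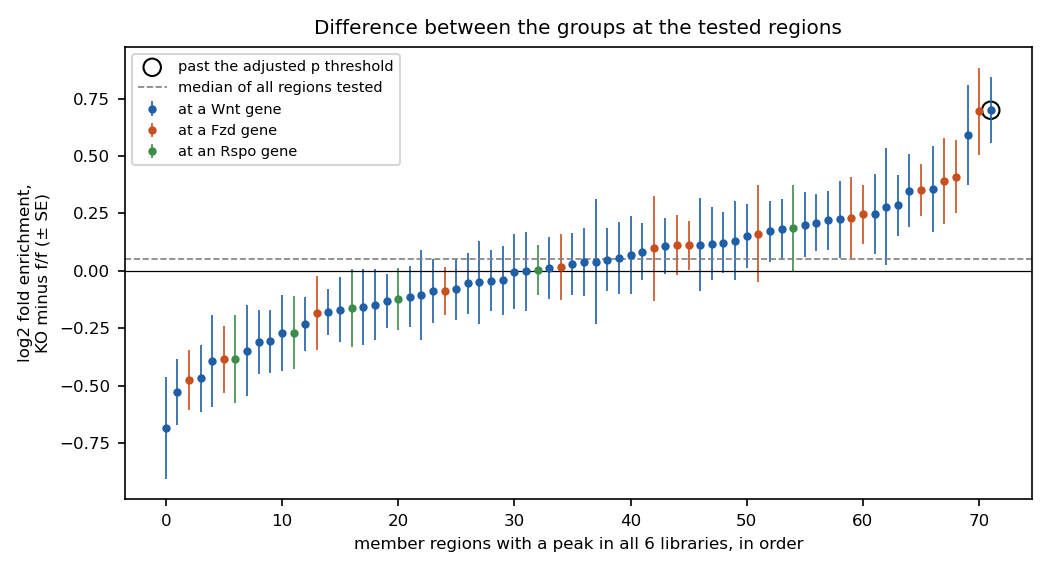
Difference in log2 fold enrichment, KO minus f/f, with its SE from limma (y axis) for the 72 member regions that had peaks in all 6 libraries, sorted by size (x axis); blue at a Wnt gene, orange at a Fzd gene, green at an Rspo gene, the dashed line the median of all 29849 regions. The differences run from -0.68 to 0.70, and the circled region at Wnt6 and Wnt10a is the 1 past the adjusted p threshold.

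With the 5 libraries other than KO replicate 3, 104 member regions had a peak in every library, and 6 were higher in KO (5.77%, background 7.40%) and 6 lower (5.77%, background 8.75%). Beside the region at Wnt10a, the higher ones were the start of Fzd6, a region inside Fzd6, a region inside Wnt7b, the region 1764 bp from the start of Rspo1 and a region 11461 bp from the start of Fzd4. At the Fzd6 start the fold was 11.6, 9.82 and 10.9 in f/f and 17.3 and 16.9 in KO, a difference of 0.49 ± 0.12 on the log2 scale (SE, limma, adjusted p = 0.000987). KO replicate 3 stood at 7.99 as listed, below the f/f libraries, but after centring all 3 KO libraries, at 0.66, 0.59 and 0.42, were above the f/f libraries, at 0.19, 0.27 and 0.15. With all libraries the difference was 0.35 ± 0.11 (limma, adjusted p = 0.125). Inside Fzd6 the fold was 3.15, 2.43 and 2.55 against 4.64 and 5.18, a difference of 0.69 ± 0.18 (SE, limma, adjusted p = 0.00392), and with all libraries 0.69 ± 0.19 (limma, adjusted p = 0.0795). KO replicate 3 stood there at 3.13 as listed, within the f/f libraries. After centring the values were -1.69, -1.75 and -1.94 in f/f and -1.24, -1.11 and -0.93 in KO, which do not overlap. At Wnt7b the fold was 2.76, 1.72 and 2.32 against 3.77 and 3.78, a difference of 0.58 ± 0.17 (SE, limma, adjusted p = 0.0105), and with all libraries 0.59 ± 0.22 (limma, adjusted p = 0.172). KO replicate 3 stood there at 2.41 as listed, again within f/f. Centred values were -1.88, -2.24 and -2.07 in f/f and -1.54, -1.57 and -1.31 in KO, without overlap. The other 2 differences, at Rspo1 and Fzd4, were each 0.48 on the log2 scale (limma, adjusted p = 0.00581 and 0.0148). With all libraries that at Rspo1 was 0.19 ± 0.19 (SE, limma, adjusted p = 0.586), and the Fzd4 region could not be tested, since KO replicate 3 had no peak there.

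The 6 lower regions without KO replicate 3 were 2 inside Wnt7a, 2 in the window of Wnt5b, 1 outside Fzd6 and 1 between Wnt10b and Wnt1. Wnt7a, the ligand that sets the dorsal side of the limb, held the largest of these differences, at chr6:91401798-91402632, 8721 bp from its start. The fold there was 7.73, 6.28 and 6.88 in f/f and 4.08 and 4.55 in KO, with no peak in KO replicate 3. The difference was -0.87 ± 0.18 on the log2 scale (SE, limma, adjusted p = 0.000142). The neighbouring region of Wnt7a, 10392 bp from the start, went from 4.23, 3.15 and 4.14 to 2.92 and 3.08 (limma, adjusted p = 0.0320). At the Wnt7a start itself, printed above, the fold was 8.08, 6.96 and 7.12 in f/f and 5.92, 6.81 and 3.02 in KO. All KO libraries were below all f/f libraries there, and the difference was -0.53 ± 0.14 (SE, limma, adjusted p = 0.0791), or -0.40 ± 0.17 without KO replicate 3 (limma, adjusted p = 0.0908), past the threshold in neither. Inside Wnt5b the fold was 6.58, 4.71 and 5.997 against 4.50 and 2.83, a difference of -0.86 ± 0.19 (SE, limma, adjusted p = 0.000411), again with no peak in KO replicate 3. The other 3 differences were -0.40 at Wnt5b, -0.47 at Fzd6 and -0.52 between Wnt10b and Wnt1 (limma, adjusted p = 0.0433, 0.0154 and 0.0396). With all libraries they were -0.68, -0.48 and -0.39 (limma, adjusted p = 0.126, 0.0786 and 0.296). Fzd6 thus held regions that were higher and 1 that was lower.

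**Figure D5:**
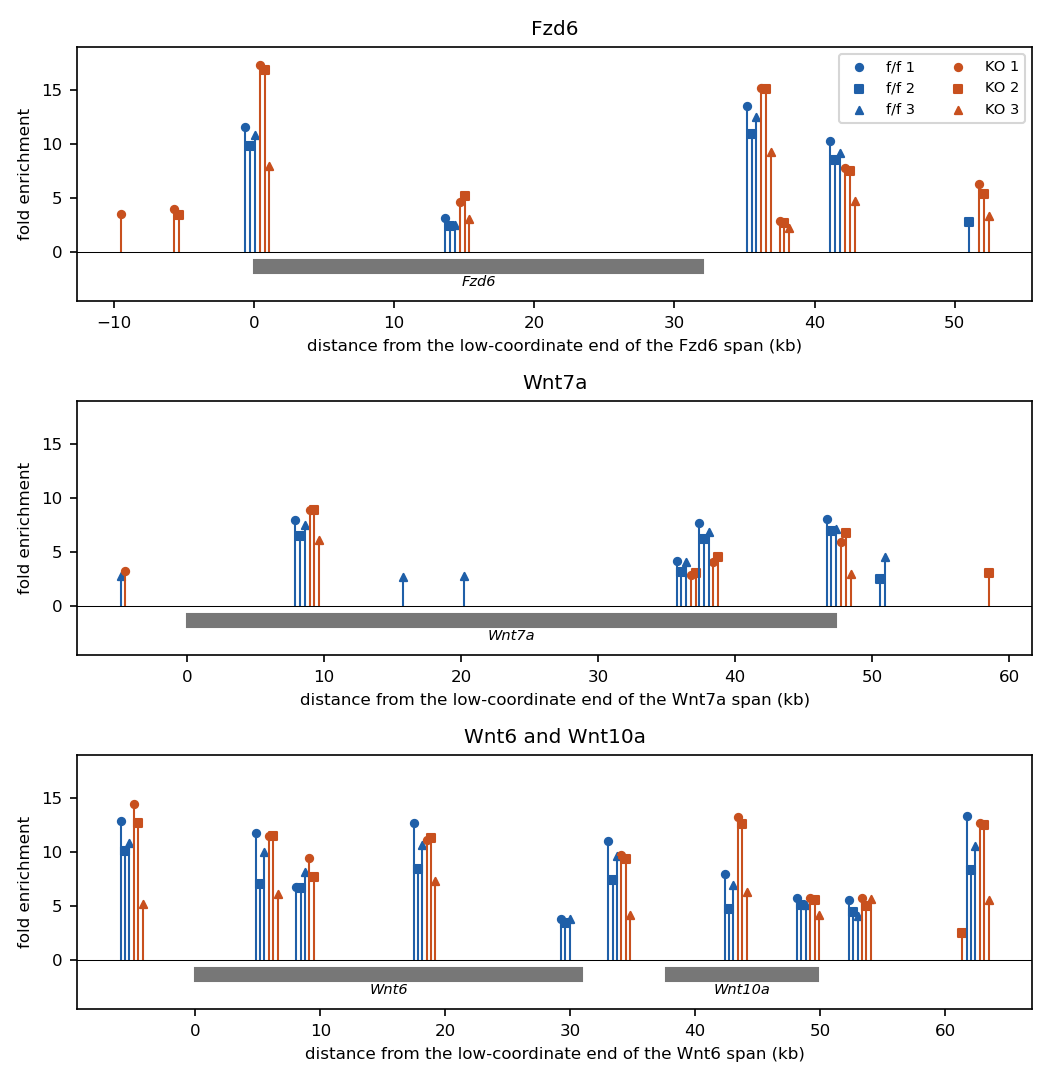
Fold enrichment (y axis) of each region in the windows of Fzd6, Wnt7a, and Wnt6 with Wnt10a, against the distance from the low-coordinate end of the gene span in kb (x axis, replicates set slightly apart); grey bars are the gene spans, blue f/f, orange KO, and a missing point means no peak. At Fzd6, 1 region 5119 bp outside the span has points of the 3 KO libraries alone, and the pair of regions inside Wnt7a 8721 and 10392 bp from its start has lower KO points and none of KO 3.

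At the gene starts, the receptors and the ligands were each set beside all start regions. Of the 9 Fzd starts that all 6 libraries had open, 8 showed a higher mean in KO, with a median difference of 0.23 on the log2 scale and a range of -0.09 to 0.41. Over all start regions tested the median was 0.15, and 78.2% were above 0. Without KO replicate 3 the Fzd median was 0.10 against 0.12, with 7 of the 9 above 0 against 76.4% of all start regions. None of the 9 passed the threshold with all libraries (lowest limma adjusted p = 0.125). The 11 Wnt starts had a median of -0.04, from -0.53 to 0.25, with 4 above 0, both below the 0.15 and 78.2% of all start regions. Without KO replicate 3 the Wnt median was -0.08 against 0.12, again with 4 above 0. Whether the Fzd or the Wnt starts differ from other starts was not tested.

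The rest of the pathway was described by 46 genes for co-receptors, Lgr receptors, secreted inhibitors, the destruction complex around β-catenin and the TCF/LEF factors, with 386 regions. Of these, 14 were only in f/f (3.63%, against 3.75% of all regions) and 0 only in KO (against 0.179%). Without KO replicate 3 the counts were 14 (3.64%, against 3.82%) and 8 (2.08%, against 2.93%). The 14 were not spread evenly: 8 lay inside Ror1, a receptor for Wnt5a, on chromosome 4, where 24, 24 and 32 regions had a peak in f/f and 6, 9 and 1 in KO, while the Ror1 start was open in all 6 libraries. The other 6 lay at Gsk3b, Kremen2, Lrp5, Tcf7l2, Tcf7l1 and Bcl9l, 1 each. On chromosome 4 as a whole, 390 of 5495 regions were only in f/f. On chromosome 16, which holds Gsk3b, 253 of 3665 were, against 3352 of 89410 over all chromosomes. Whether the difference at Ror1 is particular to that gene or shared with its surroundings was not tested. Of 141 pathway regions tested by limma, 2 were higher (1.42%, against 1.52% of all regions) and 1 lower in KO (0.709%, against 1.12%). The start of Tcf7, a transcription factor that works with β-catenin, rose from 6.96, 5.39 and 7.13 to 11.3, 12.5 and 7.56, a difference of 0.71 ± 0.13 on the log2 scale (SE, limma, adjusted p = 0.0224; 0.70 ± 0.15 and 0.000248 without KO replicate 3). Lrp5, whose activating mutations raise bone mass, had a region that rose by 0.69 on the log2 scale (limma, adjusted p = 0.0298) and another that fell by 1.26 on that scale (limma, adjusted p = 0.00988). Without KO replicate 3 these were 0.72 and -1.35 (limma, adjusted p = 0.00156 and 3.22e-10). With any f/f replicate or KO replicate 2 left out, 0 pathway regions were called higher, with KO replicate 1 left out 1 was, and with any f/f replicate left out 0 were called lower. Among the secreted inhibitors, the starts of Wif1, Notum and Sfrp5 had a peak in all 6 libraries, those of Dkk3, Frzb and Sfrp1 in 5 and that of Dkk2 in 4, while those of Sost, Dkk1, Dkk4, Sfrp2, Sfrp4 and Sostdc1 had none. Without KO replicate 3, 17 of 215 pathway regions were higher in KO (7.91%, against 7.40%) and 16 lower (7.44%, against 8.75%).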

How the data were processed

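By the study's methods, the authors used Trimmomatic for trimming, BWA for alignment (build mm10) and MACS2 2.1.2 for the peaks of each library, with a q-value threshold of 0.05. For each peak the deposited lists give a score, a fold enrichment over the local background, a −log10 p-value and a −log10 q-value. They hold no counts, so the read depth behind a value is not known from them and no interval for counting error is given. The score and the −log10 p-value as deposited were not used.

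Peaks were merged where they shared 1 bp, and a region took the highest fold of its peaks in each library. Members, lists and tests were chosen with earlier results of these data known. Regions with a peak in all libraries compared were tested with limma 3.58.1 in R 4.3.3 (log2 of the fold, centred on the library median, trended variance, Benjamini-Hochberg adjustment over all regions, threshold 0.05), and counts per library with exact two-sided permutation tests. Gene names, spans and promoters came from RefSeq GRCm38.p6. No genome sequence was used here. Values per library are given for members with a group-specific or called region, the members with most regions, Wnt7a and Rspo1, and a fixed list of bone ligands and receptors; the regions called without KO replicate 3, the motif promoters and the single pathway genes were named after their values were seen. Same-numbered libraries of the groups did not deviate together (r = 0.0376, -0.388 and -0.458), so the numbers were not taken to pair them. Python 3.11.15, numpy 2.4.6, pandas 2.3.3 and matplotlib 3.10.9 were used.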

Additional observations from a re-analysis of the deposited data

How the results depend on the processing

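The lists limit every result: a region is missing where it fell short of the authors' threshold, and KO replicate 3 has the shortest list. The member regions only in f/f numbered 2 with all libraries, 4 with a −log10 q of at least 5, 1 with equal peak numbers, 4 with windows around the summits, 1 and 6 with spans extended by 3 and 50 kb, 8 where a peak in 2 of 3 libraries was enough, and 2 to 6 with 1 library left out. Those only in KO numbered 1, and under the same settings 0, 2, 1, 0, 2, 4 and 1 to 4. Member regions called higher in KO by limma went from 1 to 2 with quantile normalization, to 10 on the −log10 q and to 0 to 6 with 1 library left out, and those lower from 0 to 11 on the −log10 q and to 0 to 6. The difference in regions per library was -15.3 and turned to 4 without KO replicate 3, with -25.5 to 4 over the libraries left out. The difference in open starts, -2.67, was 0 with equal peak numbers. Genes with more regions in every KO library went from 1 to 4 without KO replicate 3. The replicate block, fitted although the numbers did not pair the libraries, left 0 member regions called higher, gave the region at Wnt6 and Wnt10a an adjusted p of 0.0760, and changed no other member call.

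For the other pathway genes, the 14 regions only in f/f became 8 with equal peak numbers, 27 within 50 kb, 29 with a peak in 2 of 3 libraries and 14 to 22 with 1 library left out. The 0 only in KO became 2, 1 with windows around the summits, 8 with a peak in 2 of 3 and 0 to 8. The 2 called higher became 15 on the −log10 q, 0 with the replicate block and 0 to 17, and the 1 called lower became 0 with a −log10 q of at least 5, 2 with quantile normalization, 28 on the −log10 q and 0 to 16.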
